A study of Mus musculus with 9 samples.

Results

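Granulosa cells surround the oocyte and carry the receptors through which a follicle answers hormones. The genes described here are 10 markers of that identity and signalling, Amh, Amhr2, Fshr, Foxl2, Esr2, Nr5a2, Kitl, Gja1, Serpine2 and Kctd14, taken by gene symbol. All 10 were present among the 19517 genes of the authors' deposited table of comparisons. RNA-seq was done on ovaries, with every donor a female BALB/c nude mouse bearing a xenograft of the human breast cancer line MDA-MB-231. The CTX group was given cyclophosphamide (CTX), an alkylating drug toxic to dividing cells and to growing follicles. The CAU group was given caulerpin, an indole alkaloid of green algae, and the UT group had no treatment. Each of the 3 groups had 3 libraries, 9 in all, and every group carried the xenograft. For CAU the treatment label reads caulerpin only, and whether those mice also had cyclophosphamide is not given in the sources used here. Nor are age, dose, timing or stage of the oestrous cycle. Nude mice have no thymus and lack most mature T cells, which limits them as a model of ovarian immunity. By the title, the study concerns cyclophosphamide-induced ovarian dysfunction and macrophage-linked senescence of granulosa cells.

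In an ovary, granulosa cells begin as a flat layer around a resting oocyte and multiply once the follicle starts to grow. Anti-Müllerian hormone, made by granulosa cells of small growing follicles, restrains the recruitment of further follicles and lowers their response to follicle-stimulating hormone (FSH), while FSH drives later growth and oestrogen synthesis. FOXL2 and the oestrogen receptors keep the cells ovarian in character, KIT ligand signals from granulosa cell to oocyte, and connexin channels pass small molecules between the cells. Cyclophosphamide is known as a drug that depletes follicles, so markers of the granulosa compartment are a usual readout of its effect.

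The deposited values are log2 fold changes between groups with DESeq2 p-values and adjusted p-values, with no value per library. Depth, the level of each gene and overlap between single ovaries are therefore unknown here, and the background of each gene in the untreated ovaries was not examined. The headers do not name the numerator of a ratio. In each column the later-named group was taken as the numerator, and with the other choice all signs would turn. Errors are written as the standard error (SE) implied by the p-value, with a 95% interval from that SE. A gene counts as changed when its adjusted p was under 0.05. Replicates are numbered biosamples that no label ties to separate mice, so a p-value here measures only spread among numbered samples, part of which may be technical. RNA came from whole tissue, so more or fewer granulosa cells cannot be told apart from more or less RNA per granulosa cell.

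In CTX ovaries against UT ovaries, Serpine2, a secreted inhibitor of thrombin and plasminogen activators, rose to 1.28-fold of UT. It was the 1 changed member of 10, against 1.29% of all 19260 genes tested and 0.472% of them changed and higher. The members were chosen with earlier results of these data known, so such shares describe the list and do not test it. Of the 10 members, 9 had positive and 1 negative log2 fold changes, with a median of 0.22, while 44.2% of all genes were positive and their median was -0.03. Nr5a2 and Gja1 came next by p-value and did not pass. The authors' deposited table lists Nr5a2 at 0.46 (SE 0.14, adjusted p = 0.0666) and Gja1 at 0.45 (SE 0.16, adjusted p = 0.146). Including Serpine2, 3 members had an unadjusted p under 0.05, all higher, against 10.2% of all genes in either direction and 4.42% higher. After all genes were centred on a median of 0, Nr5a2 passed as well (adjusted p = 0.0409).

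In CAU ovaries against CTX ovaries, none of the 10 members changed by the authors' DESeq2 test, against 0.442% of 19245 genes. None had an unadjusted p under 0.05 either, against 5.36% of all genes. The members' log2 fold changes ran from -0.26 for Kitl to 0.08 for Amh, 4 positive and 6 negative, with a median of -0.06. All 10 intervals lay within 1.5-fold in either direction. Of all genes, 52.3% were positive and the median was 0.00397.

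In CAU ovaries against UT ovaries, again none of the 10 members changed by the authors' DESeq2 test, against 0.0518% of 19302 genes. One member, Nr5a2, had an unadjusted p under 0.05, against 3.46% of all genes. Signs were positive for 9 members and negative for Amhr2, with a median of 0.14, beside 47.8% positive and a median of -0.01 over all genes. This comparison shares its UT libraries with CTX against UT and its CAU libraries with CAU against CTX, so the 3 sets of values are not independent.

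**Figure D1:**
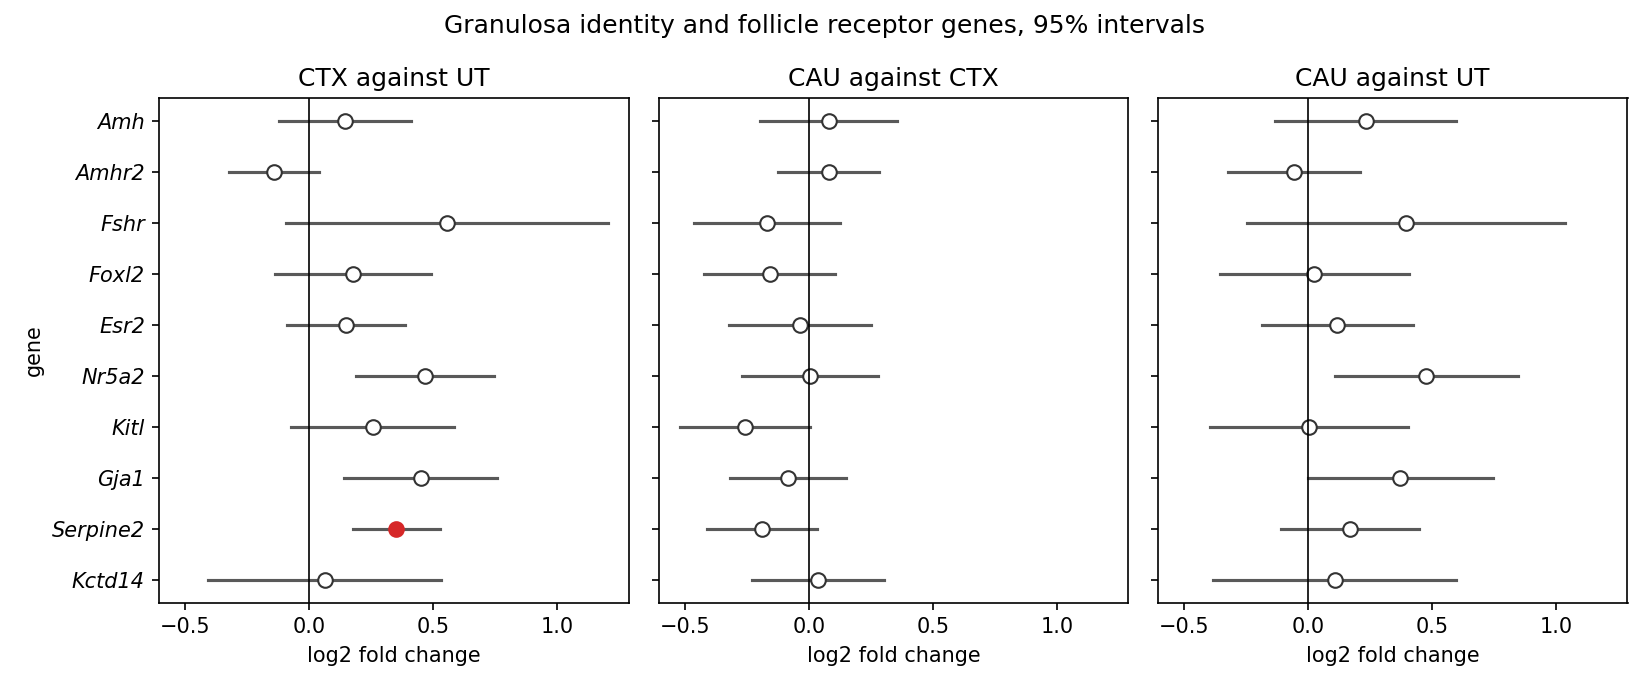
Log2 fold change of each gene (point) with its 95% interval (line) in CTX against UT, CAU against CTX and CAU against UT, from left to right. The filled red point is Serpine2 in CTX against UT at 0.35, the one with adjusted p under 0.05, and the widest intervals are those of Fshr in both comparisons with UT.

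The promoters of 4 members are shown because the comparison of CTX with UT turns on them: Serpine2, which rose, Nr5a2 and Gja1, the next smallest p-values, and Amhr2, the single negative value. Each run is the coding strand from RefSeq on GRCm38.p6, 250 bases before to 50 bases after a transcript start, and 8 of the 10 members had an entry. Capitals mark matches, on either strand, to the NR5A site CAAGGTCA (or CAAGGCCA), the GATA site AGATAA, the forkhead core GTAAACA, the nuclear receptor core AGGTCA, the SMAD box GTCTAGAC and the cAMP element TGACGTCA. The nuclear receptor core lies inside the first NR5A form, so these 2 overlap.
Serpine2, chr1:79858616-79858915, minus strand: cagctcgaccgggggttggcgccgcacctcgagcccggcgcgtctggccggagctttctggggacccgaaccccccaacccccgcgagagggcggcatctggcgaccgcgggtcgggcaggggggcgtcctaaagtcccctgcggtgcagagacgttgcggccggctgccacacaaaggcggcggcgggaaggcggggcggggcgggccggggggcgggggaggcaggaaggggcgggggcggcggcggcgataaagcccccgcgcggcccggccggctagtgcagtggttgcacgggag
Nr5a2, chr1:136960399-136960698, minus strand: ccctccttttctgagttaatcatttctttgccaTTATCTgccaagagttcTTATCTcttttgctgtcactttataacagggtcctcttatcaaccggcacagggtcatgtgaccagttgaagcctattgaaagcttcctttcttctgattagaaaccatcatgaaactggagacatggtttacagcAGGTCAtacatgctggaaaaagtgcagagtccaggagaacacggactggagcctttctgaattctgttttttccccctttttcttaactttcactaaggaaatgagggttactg
Gja1, chr10:56377050-56377349, plus strand: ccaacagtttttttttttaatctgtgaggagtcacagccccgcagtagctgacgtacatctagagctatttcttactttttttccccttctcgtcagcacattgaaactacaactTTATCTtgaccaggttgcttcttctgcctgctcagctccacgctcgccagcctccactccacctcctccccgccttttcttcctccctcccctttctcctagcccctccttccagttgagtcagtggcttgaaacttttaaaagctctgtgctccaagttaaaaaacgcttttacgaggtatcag
Amhr2, chr15:102445117-102445416, plus strand: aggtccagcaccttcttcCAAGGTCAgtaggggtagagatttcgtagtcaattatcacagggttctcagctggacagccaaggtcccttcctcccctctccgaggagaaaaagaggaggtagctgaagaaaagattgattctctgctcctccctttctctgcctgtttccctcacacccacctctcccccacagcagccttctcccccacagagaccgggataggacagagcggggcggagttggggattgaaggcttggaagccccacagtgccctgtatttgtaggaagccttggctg

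The Serpine2 window held none of these letters and was 77.7% G and C with 41 CG pairs, against a median of 52.7% G and C over 32851 promoters. That window lies inside the GENCODE span of Serpine2, whose outermost start, at 79861180, was not searched. Amhr2 held the NR5A form CAAGGTCA 232 bases before its start, a form found in 1.56% of all promoters. Nr5a2 held 2 GATA matches and 1 nuclear receptor core, and Gja1 held 1 GATA match, where 11.2% of all promoters held the GATA letters and 16.3% the nuclear receptor core. No printed promoter held the forkhead core, the SMAD box, the cAMP element or the second NR5A form, which occur in 3.65%, 0.213%, 1.79% and 2.41% of all promoters. A second listed start of Nr5a2, and the starts of Foxl2, Kitl, Esr2 and Fshr, held none of the letters searched. These matches describe the letters of these windows and no binding was measured.

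Of Amh and the receptor genes Amhr2 and Fshr, none changed in any comparison. Amh (gene ID 11705, chromosome 10, 80805243 to 80807648, plus strand, 5 exons, GENCODE M21 on GRCm38) encodes anti-Müllerian hormone itself. In CTX against UT it was at 0.14 (SE 0.14, interval -0.12 to 0.41) in the authors' deposited table, 1.10-fold. Its values were 0.08 (SE 0.14) in CAU against CTX and 0.23 (SE 0.19) in CAU against UT, by the authors' deposited table. All 3 intervals of Amh included 0. Amhr2 (gene ID 110542, chromosome 15, 102445367 to 102454633, plus strand, 11 exons) encodes the type II receptor that binds the hormone. The authors' deposited table has it at -0.14 (SE 0.09, interval -0.32 to 0.04) in CTX against UT, 0.08 (SE 0.10) in CAU against CTX and -0.06 (SE 0.14) in CAU against UT. Its interval in CTX against UT did not overlap those of Serpine2, Nr5a2 or Gja1, though these genes were read in the same libraries and the differences between them were not tested. Fshr (gene ID 14309, chromosome 17, 88984952 to 89200675, minus strand, 10 exons) encodes the FSH receptor, found on granulosa cells. It had the largest point value of the 10 in CTX against UT, 0.55, and also the largest SE, 0.33 (interval -0.09 to 1.20), with adjusted p = 0.623 by the authors' deposited table. In the authors' deposited table Fshr stood at -0.17 (SE 0.15) in CAU against CTX and 0.39 (SE 0.33) in CAU against UT. The SE was larger in both comparisons that used the UT libraries, and a 2-fold difference between CTX and UT lay inside its interval.

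Among the transcription factors, Nr5a2 had the highest point value in both comparisons with UT, its intervals overlapped those of Foxl2 and Esr2, and the differences between these genes were not tested. Nr5a2 (gene ID 26424, chromosome 1, 136842571 to 136960448, minus strand, 8 exons) encodes LRH-1, a nuclear receptor that granulosa cells need for ovulation and for steroid synthesis. It was at 0.46 in CTX against UT (1.38-fold, interval 0.19 to 0.74) and 0.48 in CAU against UT (1.39-fold, SE 0.19, interval 0.11 to 0.84) in the authors' deposited table, beside 0.0045 (SE 0.14) in CAU against CTX. Both intervals against UT, the shared control, lay above 0, and neither value passed the threshold over all genes. Foxl2 (gene ID 26927, chromosome 9, 98955288 to 98958543, plus strand, 1 exon) encodes a forkhead factor that keeps granulosa cells from taking on testicular character. By the authors' deposited table it was at 0.18 (SE 0.16) in CTX against UT, -0.16 (SE 0.14) in CAU against CTX and 0.03 (SE 0.20) in CAU against UT. An antisense gene, Foxl2os, overlaps 12 bases of its span on the other strand, and whether the counting used strand is not given in the sources used here. Esr2 (gene ID 13983, chromosome 12, 76120419 to 76177259, minus strand, 9 exons) encodes oestrogen receptor beta, the main oestrogen receptor of granulosa cells. Its 3 values in the authors' deposited table were 0.15 (SE 0.12) in CTX against UT, -0.04 (SE 0.15) in CAU against CTX and 0.12 (SE 0.16) in CAU against UT. Every interval of Foxl2 and Esr2 included 0 and none reached 1.5-fold.

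For Kitl and Gja1, genes of signalling and contact by granulosa cells, point values in CTX against UT were positive and did not pass the test. Kitl (gene ID 17311, chromosome 10, 100015630 to 100100416, plus strand, 10 exons) encodes KIT ligand, the signal that the KIT receptor of the oocyte reads. The authors' deposited table gives Kitl 0.25 (SE 0.17, interval -0.07 to 0.58) in CTX against UT and 0.01 (SE 0.20) in CAU against UT. Its -0.26 in CAU against CTX (SE 0.13, interval -0.52 to 0.00439, with adjusted p = 0.951 by the authors' deposited table) was the lowest value of the 10 there and its unadjusted p was 0.0540. Gja1 (gene ID 14609, chromosome 10, 56377330 to 56402513, plus strand, 2 exons) encodes the main connexin of the granulosa layer, the channel protein that joins granulosa cells to each other. It was at 0.45 (1.37-fold, interval 0.14 to 0.76) in CTX against UT, -0.08 (SE 0.12) in CAU against CTX and 0.37 (SE 0.19) in CAU against UT in the authors' deposited table. Its interval in CAU against UT began just below 0, and that value's unadjusted p was 0.0505.

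Serpine2 (gene ID 20720, chromosome 1, 79794197 to 79861180, minus strand, 9 exons), whose product is also called protease nexin-1, had the smallest SE of the 10 in CTX against UT. The authors' deposited table gives it 0.35 (SE 0.09, adjusted p = 0.0147), and the whole interval, 0.17 to 0.53, lay under 1.5-fold. The 2 other values of Serpine2 in the authors' deposited table were -0.19 (SE 0.11, interval -0.41 to 0.03) in CAU against CTX and 0.17 (SE 0.14, interval -0.11 to 0.45) in CAU against UT. Its CAU value thus lay between those of CTX and UT and differed from neither past the threshold. Kctd14 (gene ID 233529, chromosome 7, 97451323 to 97459557, plus strand, 3 exons) encodes a protein with a tetramerisation domain like that of potassium channels. The authors' deposited table has Kctd14 at 0.06 (SE 0.24, interval -0.41 to 0.53) in CTX against UT. Its value was 0.04 (SE 0.14) in CAU against CTX and 0.11 (SE 0.25, interval -0.38 to 0.60) in CAU against UT.

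Precision set what could be seen. In CTX against UT, at each gene's own SE, the smallest log2 fold change that would have passed ranged from 0.31 for Serpine2 to 1.13 for Fshr, or 1.24-fold to 2.19-fold. These limits were 0.39 to 0.56 in CAU against CTX and 0.59 to 1.42 in CAU against UT, both in log2 units. Nr5a2 at 0.46 lay just under its own limit of 0.49 in CTX against UT, and Gja1 at 0.45 under 0.54. In CAU against UT, where only 10 genes of the whole table changed, Nr5a2 at 0.48 lay well under its limit of 0.81. The SE was smallest in CAU against CTX for 6 members and largest in CAU against UT for 9. When the squared SEs were split into a share for each group, UT had the largest share for 6 members, CAU for 4 and CTX for 0. The same groups had the largest share for 57.8%, 35.9% and 6.32% of all genes. With no value per library, these shares do not measure the spread within a group.

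**Figure D2:**
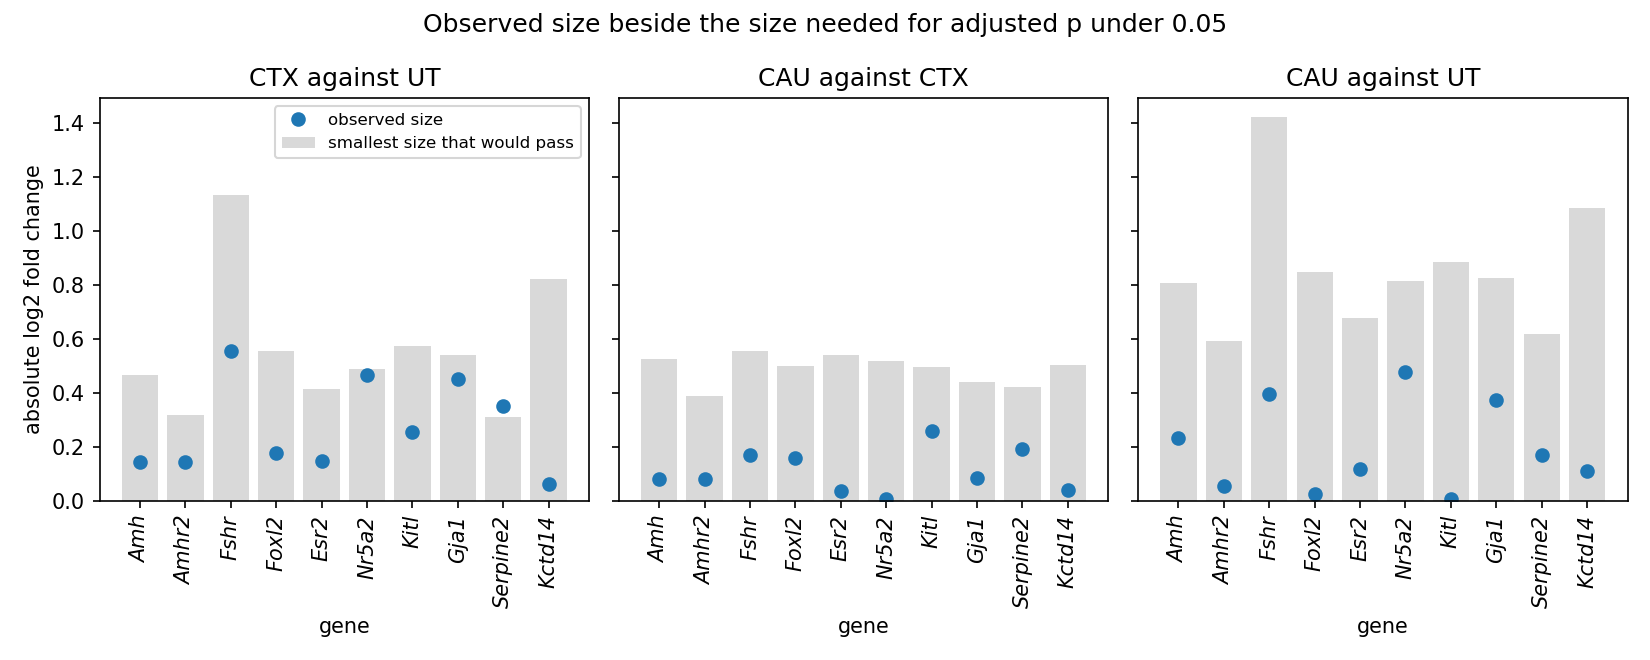
Absolute log2 fold change of each gene (point) beside the smallest size that would have had adjusted p under 0.05 at its SE (bar), in CTX against UT, CAU against CTX and CAU against UT. The point stands above its bar only for Serpine2 in CTX against UT, at 0.35 against 0.31.

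Some other granulosa markers rose in CTX against UT. Of 16 further granulosa genes, which lie partly in other lists here, 4 rose, against 0.472% of all genes. An unadjusted p under 0.05 was met by 8, all higher, against 10.2% of all genes in either direction and 4.42% higher. These genes and the lists below were chosen with earlier results of these data known. Counts set beside all genes therefore describe them and test nothing. Of the 16, 13 were positive and 3 negative, with a median of 0.46 beside 0.22 for the 10 members and -0.03 for all genes. The changed genes were Inhbb, an inhibin and activin subunit, Fst, an activin-binding protein, Grem1, a BMP antagonist, and Inhba, which encodes the other activin subunit. Against UT, the CTX value was 2.41-fold for Grem1 and 2.29-fold for Inhba, also a target of FSH signalling, with adjusted p = 0.0150 and 0.0186 by the authors' deposited table. In CAU against CTX, 1 of the 16, Inhbb, fell (median -0.18), while 0.442% of all genes changed. In CAU against UT none changed by the authors' DESeq2 test, against 0.0518% of all genes. There, 4 of the 16 had an unadjusted p under 0.05 (median of the 16 0.28), against 3.46% of all genes. Whether the median of these markers differs from that of the 10 members was not tested.

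Among partners of the hormone and receptor genes, Inhba was the 1 gene of the next 4 lists that changed in CTX against UT. Over all genes 1.29% changed. None of 12 AMH and BMP-type receptors, SMADs and targets changed (median 0.02, 0 with an unadjusted p under 0.05), and their log2 fold changes ran from -0.11 to 0.20. The authors' deposited table has Smad4, the shared SMAD, at -0.03 (SE 0.06). Of 15 genes of FSH signalling and its targets, Inhba rose and 13 were positive (median 0.19, range -0.81 to 1.20). Of these 15, 5 had an unadjusted p under 0.05, against 10.2% of all genes, and 4 of the 5 were positive. None of 11 connexins and junction genes other than Gja1 changed (median -0.02, 4 positive), nor did any of 13 partners, coregulators and targets of ESR2 and NR5A2 (median 0.07, range -0.83 to 0.65, median SE 0.44). The counts of these 2 lists with an unadjusted p under 0.05 were 0 and 1. In both comparisons of CAU no gene of these 4 lists changed by the authors' DESeq2 test, each had 0 to 2 genes at an unadjusted p under 0.05, and their medians ran from -0.16 to 0.05. Over all genes, 5.36% had such a p in CAU against CTX and 3.46% in CAU against UT. The shares of all genes that changed were 0.442% and 0.0518%, in the same order.

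Genes of ovarian and testicular identity were also read. Over all genes, 1.29% changed in CTX against UT, 0.442% in CAU against CTX and 0.0518% in CAU against UT. Unadjusted p under 0.05 was met by 10.2% of all genes in CTX against UT, 5.36% in CAU against CTX and 3.46% in CAU against UT. Of 16 ovarian identity and WNT pathway genes, Fst rose in CTX against UT, 8 were positive and 8 negative, and the median was 0.02. Their values there ran from -0.89 for Rspo1 to 0.67 for Fst, and 3 had an unadjusted p under 0.05. None of 10 testis-determining and Sertoli genes changed (median -0.23, median SE 0.31), with 4 at an unadjusted p under 0.05. Neither list held a changed gene in CAU against CTX (medians -0.05 and 0.22) or in CAU against UT (medians -0.06 and 0.04), by the authors' DESeq2 test, with 2 and 1 genes at an unadjusted p under 0.05 in the first and 1 and 0 in the second. Among 14 proteases, receptors and serpins around SERPINE2, Serping1, the inhibitor of complement C1, fell in CTX against UT while Serpine2 rose. The log2 fold change of Serping1 was -0.57, with adjusted p = 0.0208 by the authors' deposited table. Of the 14, 11 were negative (median -0.36) and 2 had an unadjusted p under 0.05. None of 21 other KCTD genes changed in CTX against UT (median -0.04, 2 with an unadjusted p under 0.05). Neither of these lists held a changed gene in CAU against CTX or CAU against UT, by the same test, with 3 and 2 genes at an unadjusted p under 0.05 in the first and 1 and 0 in the second.

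Some markers of other cells changed in the comparison in which Serpine2 rose. All 12 macrophage markers were negative in CTX against UT, 6 of them past the threshold, with a median of -1.03 and a range of -1.46 to -0.23. Of all 19260 genes, 158 were past it and lower, and 91 past it and higher. All 9 surface epithelium markers were negative (median -1.27, Upk3b past the threshold). All 14 cell cycle genes were positive (median 0.45), with Mki67, Top2a and Bub1 past the threshold, and 10 of 13 p53 targets were positive with 5 past it (median 0.34). Of 12 oocyte markers, 10 were positive and none changed (median 0.12, 1 with an unadjusted p under 0.05, against 10.2% of all genes). Such a p was met by 10 macrophage, 6 surface epithelium and 13 cell cycle genes and by 8 p53 targets. In CAU against CTX, which shares the CTX libraries, 11 of 12 macrophage markers and 9 of 9 surface epithelium markers were positive (medians 0.41 and 0.78), and 12 of 14 cell cycle genes and 12 of 12 oocyte markers were negative (medians -0.21 and -0.12). Of these 4 lists only C1qb and C1qc, complement genes of macrophages, changed, both higher in CAU. Of the 13 p53 targets, 5 fell. An unadjusted p under 0.05 was met there by 6 macrophage, 5 surface epithelium, 5 cell cycle, 0 oocyte and 8 p53 genes. The share of all genes with such a p was 5.36%. Of all 19245 genes, 60 were past the threshold and higher in CAU, and 25 past it and lower. In CAU against UT none of these 5 lists held a changed gene by the authors' DESeq2 test, while 0.0518% of all genes changed. There, all 12 macrophage markers were still negative (median -0.54, 6 with an unadjusted p under 0.05) and all 14 cell cycle genes positive (median 0.31, 5 with an unadjusted p under 0.05). The surface epithelium markers had 6 of 9 negative (median -0.50), and 7 of 12 oocyte markers and 7 of 13 p53 targets were positive (medians 0.01 and 0.06). In those 3 lists 2, 0 and 1 genes had an unadjusted p under 0.05. Over all genes 3.46% had such a p. The levels of these markers are not in the table, and their part in the values of the granulosa genes was not tested.

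**Figure D3:**
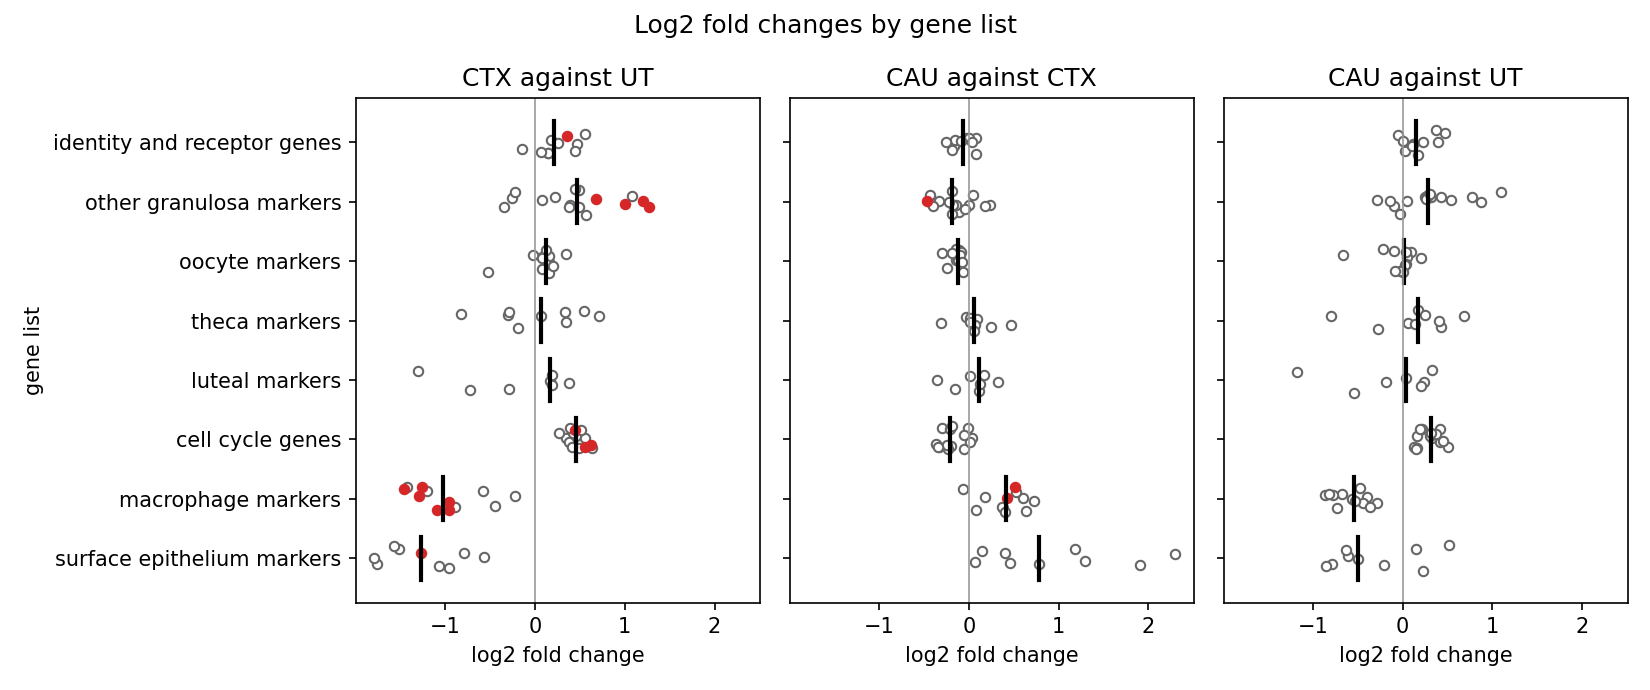
Log2 fold change of every measured gene of 8 lists (points, red where adjusted p was under 0.05) with the list median (black bar), in CTX against UT, CAU against CTX and CAU against UT. In CTX against UT the identity and receptor genes have a median of 0.22 and the other granulosa markers 0.46, while the macrophage and surface epithelium markers lie at -1.03 and -1.27.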

How the data were processed

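Per the labels' protocols, column-extracted RNA was made into libraries with a SMARTer kit for mRNA. The submitters' processing notes list HISAT2, Bowtie2, RSEM 1.3.1, DESeq2 1.44.0 and GRCm38.p6, with no role or order. No source used here gives filters, covariates, annotation or strand setting. Per the file headers, the authors deposited a log2 fold change for each of 3 pairs of groups, and DESeq2 p-values and q-values. Those q-values, called adjusted p here, differed by at most 7.74e-05 from Benjamini-Hochberg values computed afresh over the genes with a p-value. Between 215 and 272 genes were blank in a comparison and left out.

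The SE is the size of the log2 fold change over the size of the z that gives its 2-sided p-value, as in a Wald test without shrinkage. The log2 fold changes of the 3 pairs closed within 0.01 of a constant in 18772 of 18773 genes, so 1 sign convention holds. Splitting squared SEs by group assumes independent errors that add. It also assumes that a group brings the same error to both of its comparisons, which was not checked. The members and the 19 other lists were chosen with earlier results of these data known. The result of 1 of those lists is not reported here. The genes named are all members and, from each list, up to 3 changed genes or else the most precise one. The 7 sequence motifs were spelled out by hand. Tools were scipy 1.17.1, pandas 2.3.3, numpy 2.4.6, matplotlib 3.10.9 and Python 3.11.15, and the scripts were tested on simulated data. Depth per library is unknown, so no counting interval is given. Alternatives were other thresholds, all genes centred on a median of 0, z divided by its robust spread and a limit of 1 on the SE.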

Additional observations from a re-analysis of the deposited data

How the results depend on the processing

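In CTX against UT, the count of changed members was 2 with adjusted p under 0.10 or with all genes centred on a median of 0 (Serpine2 and Nr5a2 in both), 3 with unadjusted p under 0.05, and 0 with adjusted p under 0.01 or with a minimum of 1.5-fold. It was 1, Serpine2, with z divided by its robust spread of 1.01 and with genes of an SE of at most 1. Adjusted p of Serpine2 ranged from 0.00587 to 0.0182 over the 3 recomputed adjustments and that of Nr5a2 from 0.0409 to 0.0778. In CAU against UT the count of 0 became 1, Nr5a2, with z divided by its robust spread of 0.711 (adjusted p = 0.0324) and with unadjusted p under 0.05. A spread under 1 enlarges every z, so that setting is looser than the authors' DESeq2 test, where Nr5a2 had adjusted p = 0.999992. In CAU against CTX the count was 0 under all 7 alternatives. The members' medians moved by less than their median SE under every alternative, including leaving out each member. Of 90 values of single members under an alternative, 88 kept their side of the threshold and 2, both of Nr5a2, passed it, and no sign turned on centring.

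No paired analysis was possible because the deposited table holds no value per library, and leaving out each replicate was not run for the same reason. Effects under 1.24-fold to 2.68-fold, by gene and comparison, could not have passed.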

Other observations

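Lists of later follicle stages and of the tissue around follicles held no changed gene in any comparison by the authors' DESeq2 test. The shares of all genes that changed were 1.29% in CTX against UT, 0.442% in CAU against CTX and 0.0518% in CAU against UT. Over all genes, 10.2% had an unadjusted p under 0.05 in CTX against UT, 5.36% in CAU against CTX and 3.46% in CAU against UT. In CTX against UT the medians were -0.16 for 12 cumulus and ovulation genes, 0.07 for 9 theca and steroidogenic genes, 0.16 for 7 luteal genes and 0.16 for 8 stromal genes, with 2, 2, 0 and 2 genes at an unadjusted p under 0.05. In CAU against CTX they were 0.15, 0.06, 0.12 and -0.11, with 2, 1, 1 and 1 such genes, and in CAU against UT 0.15, 0.17, 0.04 and 0.01, with 0, 2, 0 and 0. The median SEs of the cumulus, theca and luteal lists in CTX against UT were 0.53, 0.60 and 0.55, against 0.15 for the 10 granulosa identity and receptor genes and 0.21 for all genes. Of the 9 theca and steroidogenic genes, 5 were positive and 4 negative in CTX against UT, and 7 and 2 in CAU against UT. Values in CTX against UT ran from -0.83 for Star (SE 0.84) to 0.71 for Hhip (SE 0.22). Ptch1, the hedgehog receptor of theca cells, had the smallest SE of the 9 in both comparisons with UT. The authors' deposited table has it at 0.33 (SE 0.14) in CTX against UT and 0.43 (SE 0.19) in CAU against UT. Its unadjusted DESeq2 p was 0.0203 in the first and 0.0261 in the second, and its adjusted p was 0.336 and 0.999992.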
